A study of Mus musculus with 4 samples.

Results

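The segments of the T cell receptor beta locus were described in CD4+CD8+ double-positive (DP) thymocytes of mice with floxed Chaf1b alleles and Cd4-cre and of controls without Cre. Members were all genes of the deposited count table whose GENCODE M21 symbol begins with Trbv, Trbd or Trbj followed by a digit, or with Trbc1 or Trbc2. This gave 53 of 56239 genes, made up of 35 variable (V), 2 diversity (D), 14 joining (J) and 2 constant (C) segments. All lie on chromosome 6 between 40891229 and 41558452 (GRCm38).

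The RNA-seq came from DP thymocytes sorted from thymus of C57BL/6 mice, with 2 libraries for each genotype. KO mice were Cd4-cre;CHAF1bfloxp/floxp, in which a transgene under Cd4 control makes Cre recombinase and deletes the floxed Chaf1b alleles. WT mice were CHAF1bfloxp/floxp and carried the same floxed alleles without the transgene, so a control with Cre alone was not part of the comparison. Chaf1b encodes a subunit of chromatin assembly factor 1, which places histones on newly copied DNA, and the study's title names invariant natural killer T (iNKT) cells and their early development. Cd4 control of Cre acts at about the DP stage, and in normal development beta rearrangement takes place before it.

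In a developing T cell the RAG recombinase joins 1 D segment to 1 J segment of the beta locus and then adds a V segment. The rearranged V-D-J exon is transcribed and spliced to a C segment, and the beta chain then pairs first with the pre-TCR alpha chain and later with a rearranged alpha chain. The locus holds a pair of D-J-C clusters in a row, Trbd1 with the Trbj1 segments and Trbc1, and Trbd2 with the Trbj2 segments and Trbc2. Mouse iNKT cells combine an invariant alpha chain with a beta chain that mostly uses V-beta 8 (Trbv13), V-beta 7 (Trbv29) or V-beta 2 (Trbv1). Bulk counts of a segment cannot tell fewer cells using it from less RNA in each such cell.

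The J segments are shown first because they carried the largest difference between the genotypes as a class, and the D segments because they lie just before them. The first set is of Trbj1 segments and the second of Trbj2 segments, each 5′ to 3′ from the GENCODE M21 transcripts, with a motif of the codons TTN, GGN, NNN and GGN in a row in capitals where it was found on the sense strand. This is the Phe-Gly-X-Gly motif that J segments share (TTN also reads as Leu), and only the sense strand was searched. In the D segments the capitals mark runs of 3 or more G.
Trbd1 at chr6:41533201-41533212, plus strand: GGGacaGGGGGc
Trbj1-3 at chr6:41534323-41534372, plus strand: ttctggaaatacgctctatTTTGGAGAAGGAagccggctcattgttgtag
Trbj1-4 at chr6:41534811-41534861, plus strand: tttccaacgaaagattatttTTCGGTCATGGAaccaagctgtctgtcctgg
Trbj1-5 at chr6:41535084-41535133, plus strand: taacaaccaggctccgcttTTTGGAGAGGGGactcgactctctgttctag
Trbj1-6 at chr6:41535554-41535606, plus strand: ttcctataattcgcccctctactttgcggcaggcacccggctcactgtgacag
Trbj1-7 at chr6:41535642-41535687, plus strand: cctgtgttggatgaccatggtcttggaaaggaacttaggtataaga
Trbd2 at chr6:41542163-41542176, plus strand: GGGactGGGGGGGc
Trbj2-1 at chr6:41542754-41542803, plus strand: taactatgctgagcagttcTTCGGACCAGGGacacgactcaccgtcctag
Trbj2-5 at chr6:41543453-41543501, plus strand: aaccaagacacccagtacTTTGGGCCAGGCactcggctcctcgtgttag
Trbj2-6 at chr6:41543598-41543645, plus strand: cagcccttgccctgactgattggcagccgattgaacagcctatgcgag
Trbj2-7 at chr6:41543810-41543856, plus strand: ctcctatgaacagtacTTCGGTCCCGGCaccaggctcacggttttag

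The motif was found in 11 of the 14 J segments, against 3 of 259 windows of 50 bases (1.16%) cut from the V and C transcripts. Trbj1-6, Trbj1-7 and the annotated pseudogene Trbj2-6 held no match.

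The V segments shown next are those that iNKT cells favour, and Trbv24, an annotated pseudogene with the largest fold change among the segments named here. Each is the last 36 bases of the transcript, where the D segment is joined, and capitals mark the TGT of the motif TGTGC, the codon of the conserved cysteine. In Trbv24 the capitals also mark a TAG that lies in frame before that codon. No TGTGC was found in these bases of Trbv1, but other codons for cysteine were not searched, so this does not show that the cysteine is absent.
Trbv13-1 at chr6:41116433-41116468, plus strand: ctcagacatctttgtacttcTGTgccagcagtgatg
Trbv13-2 at chr6:41121797-41121832, plus strand: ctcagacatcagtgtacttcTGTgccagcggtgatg
Trbv13-3 at chr6:41130550-41130585, plus strand: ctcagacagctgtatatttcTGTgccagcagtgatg
Trbv29 at chr6:41271846-41271881, plus strand: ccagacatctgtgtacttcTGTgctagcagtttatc
Trbv1 at chr6:40891850-40891885, plus strand: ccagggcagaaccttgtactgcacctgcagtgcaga
Trbv24 at chr6:41218522-41218557, plus strand: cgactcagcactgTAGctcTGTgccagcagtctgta

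The libraries held 21068760 to 27369874 counts, of which the beta segments took 0.376% and 0.467% in KO replicates 1 and 2 and 0.481% and 0.463% in WT replicates 1 and 2. Chaf1b, the targeted gene, stood at 12.2 and 14.8 CPM (TMM-scaled CPM, a count relative to the size of its library) in KO and at 27.8 and 31.7 CPM in WT. Its log2 fold change was -1.14 ± 0.16 (SE; edgeR adjusted p = 0.267), and with the replicate number as a term the adjusted p in edgeR was 0.0172. The counts cover the whole gene, so they do not show how much of the remaining RNA holds the deleted part. Replicate 1 of both genotypes expressed Xist, with 47301 counts in KO and 47368 in WT. Replicate 2 of both expressed the Y-linked Ddx3y, with 3311 counts in KO and 5384 in WT. Differences within a replicate number are therefore given as between the female and between the male libraries. KO replicate 1 stood apart from the other libraries, with mitochondrially encoded transcripts at 3.30% of its counts, against 2.03% in KO replicate 2 and 1.33% and 1.45% in WT. Of the genes that define DP cells, Cd4 had 2064 and 1895 CPM in KO and 1812 and 1885 CPM in WT, and Cd8a had 2759 and 3365 CPM in KO and 3421 and 3503 CPM in WT. Rag1 had 10229 and 6077 CPM in KO and 5774 and 5472 CPM in WT. None of these 3 genes passed the test in edgeR (adjusted p of 0.765 for Cd4, 0.627 for Cd8a and 0.363 for Rag1). Of the markers of other cells, Ncr1 and Hba-a2 had 0 counts in all libraries, and the 5 NK and iNKT effector markers summed to 55.9 and 31.8 CPM in KO against 22.9 and 18.0 CPM in WT. Most of that sum was Gzma, which was higher in both KO libraries and passed edgeR with sex as a term (adjusted p = 0.0194). The 5 mature single-positive markers summed to 282 and 232 CPM in KO against 195 and 178 CPM in WT. The 4 double-negative markers summed to 18.0 and 18.7 CPM in KO against 12.98 and 13.4 CPM in WT. Only Il2ra of these was higher in both KO libraries, at 11.01 and 13.6 CPM against 7.38 and 8.42 CPM in WT. Kit had 6.48 and 3.70 CPM in KO and 4.89 and 4.30 CPM in WT, and Kit, Il7r and Hes1 overlapped between the genotypes. The 5 measured gamma-delta markers summed to 102 and 93.3 CPM in KO against 90.3 and 77.2 CPM in WT. Trdc made up most of that sum, at 96.5 and 89.1 CPM in KO and 87.9 and 75.5 CPM in WT (edgeR adjusted p = 0.470). Sox13 overlapped between the genotypes, and the gamma-chain constant genes are given further below. The 5 liver markers summed to 332 and 4.81 CPM in KO against 318 and 68.2 CPM in WT, so they were higher in replicate 1 of both genotypes. Their part in the results below was not tested.

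Taken by class, V segments were at nearly the same summed level in both genotypes, and J segments were lower in both KO libraries. The V sum was 1143 and 1140 CPM in KO replicates 1 and 2, against 1106 and 1125 CPM in WT replicates 1 and 2. The J sum was 242 and 363 CPM in KO, against 432 and 407 CPM in WT. The D sum was 4.85 and 6.38 CPM in KO and 7.34 and 5.74 CPM in WT, and the genotypes overlapped. The C sum also overlapped, with 2702 and 3042 CPM in KO and 3166 and 2929 CPM in WT.

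As means, V segments had 1142 ± 2.08 CPM in KO and 1116 ± 13.4 CPM in WT, a log2 difference of 0.03 (SD, n = 2 each). J segments had 302 ± 85.6 CPM in KO and 419 ± 17.7 CPM in WT, a log2 difference of -0.50. It came to -0.84 between the female libraries and -0.17 between the males, so most of its size rested on KO replicate 1. An exact two-sided permutation test of 2 against 2 libraries cannot go below p = 0.333, and both the V and the J sum reached that value, the V sum with KO higher. D and C gave an exact permutation p of 0.667.

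**Figure D1:**
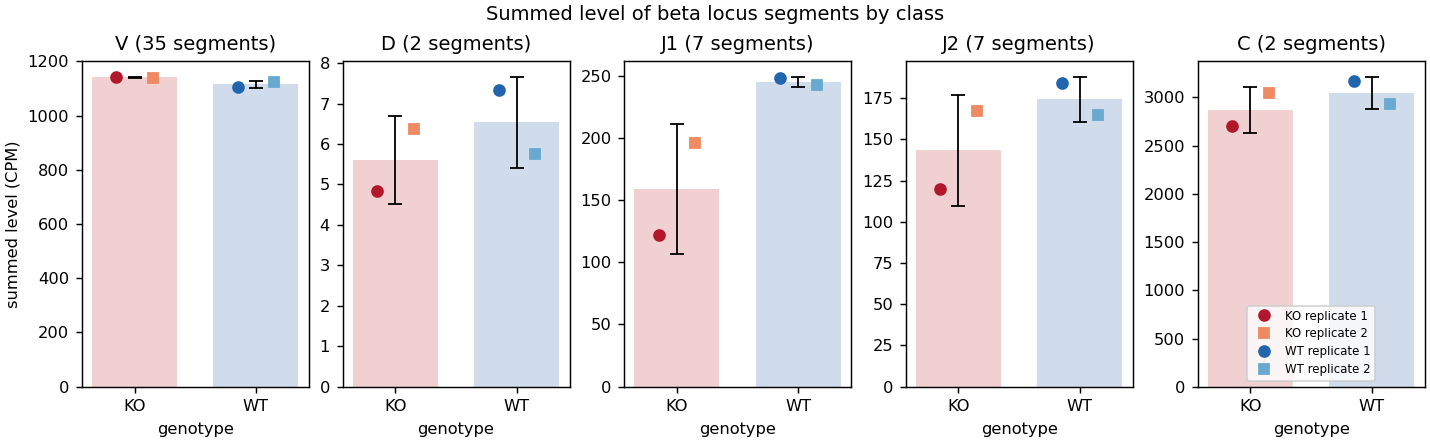
Summed level of each segment class, in CPM on axes that start at 0, for KO and WT; bars are means of 2 libraries, error bars their SD and points the single libraries. The V bars are alike (1142 CPM in KO and 1116 CPM in WT), while both KO points of the J1 panel (122 and 196 CPM) lie below both WT points (248 and 242 CPM).

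The edgeR quasi-likelihood test over 15070 genes took in 43 of the 53 segments, all but 10 V pseudogenes with too few counts. At an adjusted p under 0.05 it called 0 of the 43 segments, while it called 0.00664% of all genes (1 gene). At an unadjusted p under 0.05 there were 6 segments, all lower in KO, against 8.69% of all genes that were lower at that level. They were 5 Trbj1 segments and Trbv24. limma-voom called 0 segments and 0.00664% of all genes. DESeq2 called 1, Trbv24, where it called 3.07% of all genes and 1.89% as lower in KO. With sex, that is the replicate number, as a term edgeR also called Trbv24 alone, where it called 3.21% of all genes. Without a filter on low counts edgeR called 6 segments, all lower in KO, where it called 5.63% of all genes and 3.22% as lower.

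The J segments differed between the clusters, and those of the first cluster had the larger differences. All 7 Trbj1 segments were lower in both KO libraries than in both WT libraries, against 3 of the 7 Trbj2 segments. Together these were 10 of 14 J segments (71.4%), while 28.4% of all tested genes had both KO libraries below both WT libraries. Log2 fold changes ran from -0.70 to -0.57 in the Trbj1 cluster, with a median of -0.64, and from -0.68 to -0.03 in the Trbj2 cluster, with a median of -0.37. The median over all tested genes was 0.00.

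Trbj1-5, the most abundant of its cluster, had 32.8 and 53.6 CPM in KO, against 69.7 and 64.5 CPM in WT. KO replicate 1 was the lowest library and KO replicate 2 lay between it and WT. Its log2 fold change was -0.64 ± 0.23 (SE; edgeR adjusted p = 0.276). Trbj1-4 had 21.5 and 30.9 CPM in KO, against 40.9 and 40.8 CPM in WT, so the WT libraries were alike and both KO libraries lower. It had the smallest p of the J segments, with a log2 fold change of -0.64 ± 0.19 (SE; edgeR adjusted p = 0.267). Trbj1-3 had 28.9 and 45.4 CPM in KO, against 54.4 and 57.4 CPM in WT.

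Trbj1-2 had 15.02 and 27.4 CPM in KO, against 34.5 and 30.8 CPM in WT. Trbj1-1, the least abundant J segment, had 1.01 and 2.73 CPM in KO, against 2.91 and 2.92 CPM in WT, so that KO replicate 2 was close to WT. Trbj1-6, which lacks the motif searched, had 11.6 and 19.2 CPM in KO, against 24.1 and 25.9 CPM in WT. Trbj1-7, also without it, had 11.3 and 16.6 CPM in KO, against 21.5 and 19.9 CPM in WT, so in these segments too both KO libraries were lower.

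In the second cluster Trbj2-7, the most abundant J segment of all, had 58.6 and 72.7 CPM in KO, against 75.8 and 73.6 CPM in WT. Its log2 fold change was -0.19 ± 0.14 (SE; edgeR adjusted p = 0.504), and KO replicate 2 was within 1 CPM of WT replicate 2. Trbj2-1, the first of the cluster, had 14.8 and 17.2 CPM in KO, against 17.0 and 15.7 CPM in WT, with the genotypes overlapping. Trbj2-5 had KO libraries far apart, at 4.32 and 12.3 CPM, against 14.4 and 12.2 CPM in WT. Trbj2-3 was lower in both KO libraries, at 13.9 and 20.02 CPM, against 23.6 and 20.2 CPM in WT, though KO replicate 2 and WT replicate 2 were close. Trbj2-4 was also lower in both, at 4.85 and 8.37 CPM, against 9.87 and 9.51 CPM in WT. Trbj2-2 overlapped, with 10.1 and 17.1 CPM in KO and 18.6 and 15.9 CPM in WT. The pseudogene Trbj2-6 had 12.996 and 19.2 CPM in KO, against 24.7 and 17.5 CPM in WT. Counts at Trbj1-7 and Trbj2-6 made up 10.04% and 9.88% of the J counts in KO and 10.7% and 9.20% in WT.

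How far the J difference reached depended on KO replicate 1. Without KO replicate 1 the median log2 fold change was -0.31 over the Trbj1 segments and -0.11 over the Trbj2 segments, and edgeR called 1 J segment lower, Trbj1-4 (-0.40, adjusted p = 0.0493), where it called 3.31% of all genes and 2.22% as lower. Without KO replicate 2 the medians were -1.04 and -0.70, and edgeR called 13 of the 14 J segments lower, where it called 32.3% of all genes and 16.5% as lower. Without WT replicate 1 or 2 it called 0 segments, where it called 0.0127% and 0.00634% of all genes. Between the females the median over the Trbj1 segments was -1.05, and between the males -0.27, with all 7 negative in both. Over the Trbj2 segments it was -0.87 between the females and 0.02 between the males. The mitochondrial share above moved with the same library, and its part in the J difference was not tested.

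**Figure D2:**
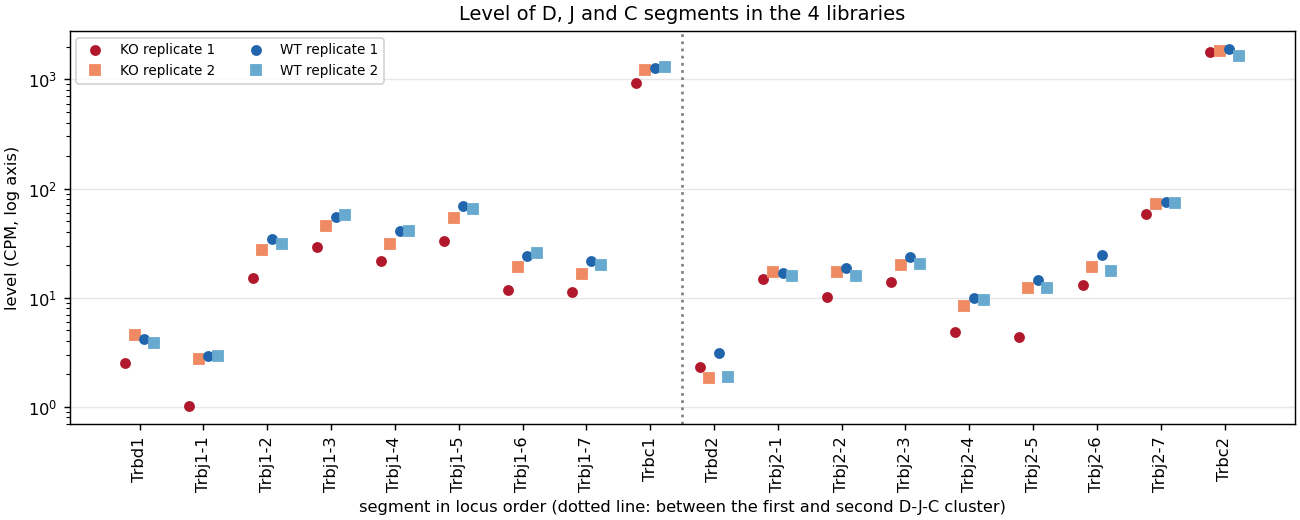
Level of each D, J and C segment in the 4 libraries, in CPM on a log axis and in locus order, with the dotted line between the clusters. KO replicate 1 is the lowest library at 14 of the 14 J segments, and KO replicate 2 lies below both WT libraries throughout the Trbj1 cluster.

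D and J segments are only 12 to 54 bases long, and each is a gene of its own in the count table. The deposited counts were made with no option for a fragment over several genes, such as a spliced one over a J and a C exon. The J counts are therefore not the same as J usage in spliced messages, and the same limit holds for the V, D and C counts. Relative to C counts there were 8.94 and 11.9 J counts per 100 C counts in KO, against 13.6 and 13.9 in WT. Within the first cluster there were 13.2 and 16.1 Trbj1 counts per 100 Trbc1 counts in KO, against 19.5 and 18.7 in WT. Within the second there were 6.72 and 9.12 Trbj2 counts per 100 Trbc2 counts in KO, against 9.70 and 10.1 in WT. None of these ranges overlapped, and each exact permutation p was 0.333, the smallest possible.

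The D segments had few counts and no clear order of the genotypes. Trbd1 had 57 and 98 counts in KO and 100 and 110 in WT, which is 2.51 and 4.53 CPM in KO and 4.22 and 3.88 CPM in WT. Trbd2 had 53 and 40 counts in KO and 74 and 53 in WT. Their log2 fold changes were -0.20 ± 0.34 and -0.25 ± 0.37 (SE; edgeR adjusted p = 0.781 and 0.749). A direction could not be given at this depth.

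The balance of the clusters moved the same way in the J and the C segments. Trbj1 segments made up 50.5% of J counts in KO replicate 1 (exact binomial 95% interval 49.2 to 51.9) and 54.0% in KO replicate 2 (52.9 to 55.1). In WT they made up 57.4% (56.4 to 58.4) and 59.5% (58.6 to 60.4), so the intervals of the genotypes did not meet. The means were 52.3 ± 2.45% in KO and 58.5 ± 1.51% in WT (SD, n = 2 each), a difference of -6.87 points between the females and -5.54 points between the males. Such intervals cover counting error only. The exact permutation p was 0.333, the smallest these 4 libraries allow.

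Trbc1 made up 34.1% of C counts in KO replicate 1 (33.8 to 34.5) and 39.9% in KO replicate 2 (39.5 to 40.3), against 40.1% (39.8 to 40.5) and 44.3% (43.9 to 44.6) in WT. KO replicate 2 and WT replicate 1 were within 1 point of each other, so the gap between the genotypes was no wider than counting error there. By level Trbc1 had 922 and 1213 CPM in KO, against 1270 and 1296 CPM in WT, and differed by -0.26 ± 0.18 on the log2 scale (SE; edgeR adjusted p = 0.470). The value was -0.076 without KO replicate 1, and -0.48 without KO replicate 2, where it passed (edgeR adjusted p = 0.0052). Trbc2 had 1780 and 1829 CPM in KO, against 1897 and 1633 CPM in WT, and differed by 0.03 ± 0.16 on the log2 scale (SE; edgeR adjusted p = 0.932). The sign of the Trbc2 value turned to -0.05 with library totals in place of TMM. The C transcripts are 81.7% identical, and 28.7% of the 100-base windows of Trbc1 occur in Trbc2, so their counts are uncertain where reads could be placed in either.

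**Figure D3:**
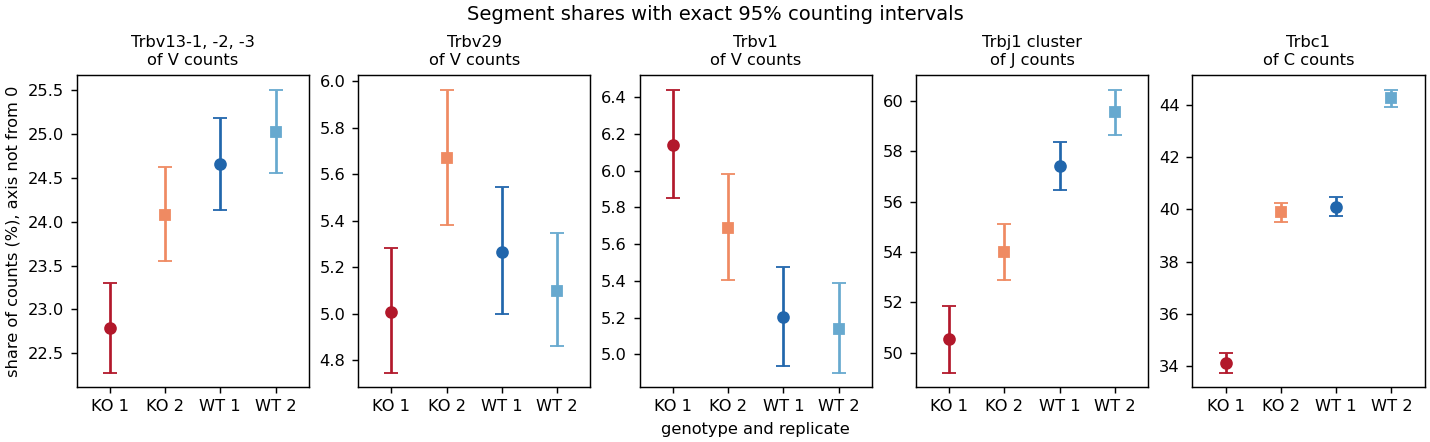
Share of each named V segment or family among V counts, of Trbj1 among J counts and of Trbc1 among C counts, in percent, for each library; points are shares and bars exact 95% counting intervals, on axes that do not start at 0. The Trbj1 share is 50.5% and 54.0% in KO against 57.4% and 59.5% in WT, while the Trbv29 panel has the genotypes overlapping.

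Among the V segments that iNKT cells favour, 0 of 5 passed the test, and 1 of 5, Trbv1, had both KO libraries above both WT libraries, where 27.9% of all genes did. Trbv13-2 was the V segment with the highest level per length, at 463 CPM per kilobase over all libraries. It had 142 and 161 CPM in KO, against 159 and 167 CPM in WT, so KO replicate 2 lay between the WT libraries. Its log2 fold change was -0.11 ± 0.12 (SE; edgeR adjusted p = 0.640). Trbv13-1 had 77.9 and 71.9 CPM in KO, against 73.4 and 73.8 CPM in WT, and Trbv13-3 had 40.1 and 41.9 CPM in KO, against 39.9 and 40.5 CPM in WT. For both the genotypes overlapped, and the log2 fold changes were 0.03 ± 0.11 and 0.03 ± 0.11 (SE). Both signs turned negative with library totals.

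Trbv29 had 57.3 and 64.6 CPM in KO, against 58.3 and 57.4 CPM in WT, and differed by 0.08 ± 0.12 on the log2 scale (SE; edgeR adjusted p = 0.755). With library totals its value was -0.00042. Trbv1 had 70.2 and 64.9 CPM in KO, against 57.5 and 57.8 CPM in WT, so both KO libraries were higher. Its log2 fold change of 0.23 ± 0.11 (SE) missed the threshold in edgeR (adjusted p = 0.336). It came to 0.29 between the females and 0.17 between the males.

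As shares of the V counts, the 3 Trbv13 segments made up 22.8% (exact 95% interval 22.3 to 23.3) and 24.1% (23.5 to 24.6) in KO, against 24.7% (24.1 to 25.2) and 25.03% (24.6 to 25.5) in WT. The means of 23.4 ± 0.914% in KO and 24.8 ± 0.261% in WT differed by -1.41 points (SD, n = 2 each), and the intervals of KO replicate 2 and WT replicate 1 met. Trbv29 made up 5.01% and 5.67% in KO, against 5.27% and 5.10% in WT. Trbv1 made up 6.14% (5.85 to 6.44) and 5.69% (5.40 to 5.98) in KO, against 5.20% (4.94 to 5.48) and 5.14% (4.90 to 5.39) in WT. For Trbv1 too the intervals of KO replicate 2 and WT replicate 1 met. The sum of the 3 Trbv13 segments, Trbv29 and Trbv1 was 33.9% and 35.4% of V counts in KO, against 35.1% and 35.3% in WT. Its genotypes overlapped (exact permutation p = 1.00), while the exact p of the Trbv13 and the Trbv1 share alone was 0.333, the smallest possible.

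Within the Trbv13 family Trbv13-2 held most counts, with 54.7% and 58.6% in KO and 58.5% and 59.4% in WT. The family members are close copies: Trbv13-2 and Trbv13-3 are 90.6% identical, and Trbv13-1 is 81.0% and 79.2% identical to them. No window of 100 bases was common to any of the 3 pairs, so any stretch they share is shorter than that.

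Among the other abundant V segments 0 passed the test. After Trbv13-2 came Trbv12-1, Trbv12-2, Trbv16 and Trbv13-1, at 238, 216, 212 and 203 CPM per kilobase. The last 3 of these overlapped between libraries and have no order among themselves. Trbv12-1 had 93.5 and 91.5 CPM in KO, against 93.3 and 92.4 CPM in WT. Trbv12-2 had 80.4 and 85.5 CPM in KO, against 82.4 and 84.9 CPM in WT. Trbv16 was slightly higher in both KO libraries, at 87.8 and 89.0 CPM, against 77.0 and 83.1 CPM in WT.

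Trbv2 was lower in both KO libraries, at 55.9 and 61.5 CPM, against 68.3 and 67.9 CPM in WT, with a log2 fold change of -0.21 ± 0.11 (SE; edgeR adjusted p = 0.364). Trbv3, its neighbour, had 57.2 and 56.9 CPM in KO, against 59.9 and 58.3 CPM in WT. Trbv15 had 64.6 and 56.2 CPM in KO, against 53.5 and 55.3 CPM in WT. Among the 25 tested V segments, 8 had both KO libraries above both WT libraries, where 27.9% of all genes did, and 4 had both below, where 28.4% of all genes did. Their median log2 fold change was 0.05, and with library totals it was -0.03, where that of all genes was -0.08.

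**Figure D4:**
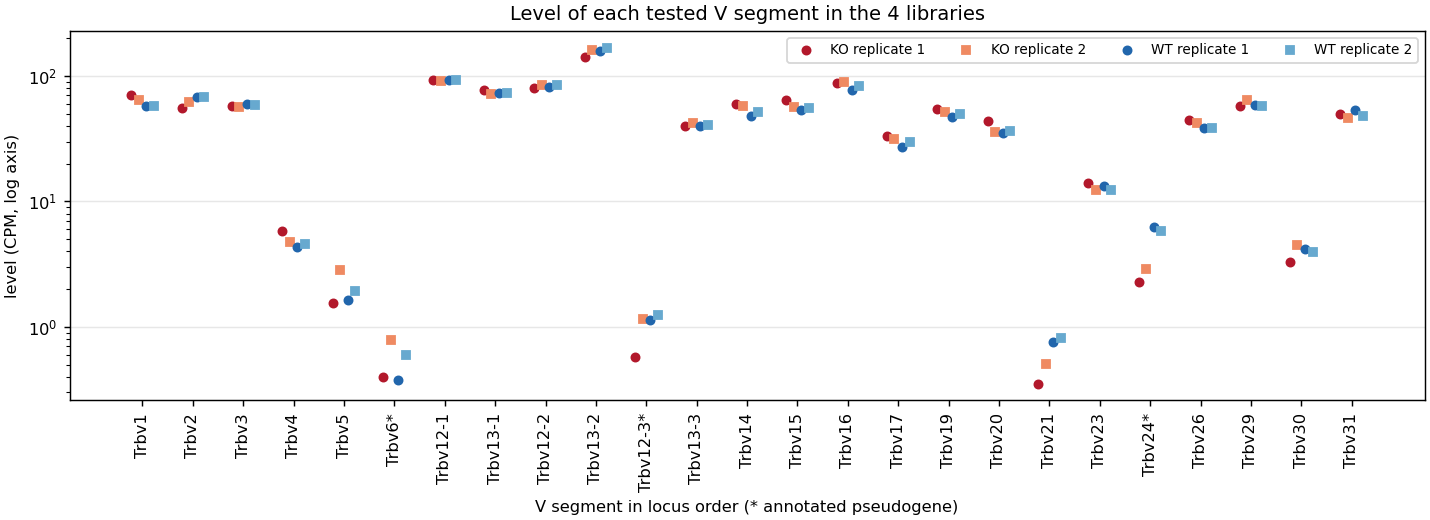
Level of each tested V segment in the 4 libraries, in CPM on a log axis and in locus order; an asterisk marks an annotated pseudogene. The libraries lie close together from Trbv13-2 at 142 to 167 CPM down to Trbv23 at 12.2 to 14.1 CPM. At Trbv24 both KO points (2.29 and 2.91 CPM) stand well below both WT points (6.28 and 5.81 CPM). Trbv21, at a lower level, also has both KO points (0.352 and 0.509 CPM) below both WT points (0.759 and 0.811 CPM).

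The pseudogene Trbv24 had fewer counts in both KO libraries, and whether it passed depended on the fit. It had 52 and 63 counts in KO, against 149 and 165 in WT, or 2.60 ± 0.440 CPM in KO and 6.05 ± 0.330 CPM in WT (SD, n = 2 each). In edgeR it differed by -1.22 ± 0.26 on the log2 scale (SE; adjusted p = 0.267). With sex as a term edgeR gave -1.22 ± 0.28 (adjusted p = 0.0425), where 2.2% of all genes were called lower, and in DESeq2 the adjusted p was 0.0342. It came to -1.42 between the females and -0.98 between the males. Without KO replicate 1 it was -1.05, with an adjusted p of 0.0786 in edgeR, and without KO replicate 2 -1.40, with an adjusted p of 0.0039. Without the filter on low counts the adjusted p in edgeR was 0.0051, and over the other alternatives it went up to 0.700. Its functional neighbour Trbv23 had 14.1 and 12.4 CPM in KO, against 13.3 and 12.2 CPM in WT.

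V pseudogenes as a group took 0.370% (0.300 to 0.452) and 0.466% (0.385 to 0.559) of V counts in KO, against 0.762% (0.661 to 0.875) and 0.749% (0.657 to 0.849) in WT. Trbv24 held the most of these counts in each library, and Trbv12-3, the next over all libraries, had 13 and 25 counts in KO and 27 and 35 in WT. Trbv7, Trbv8 and Trbv27 had no count in any library, which allows up to 3 counts, or 0.110 to 0.142 CPM by library. All 22 functional V segments were tested, and 21 of them averaged 1 CPM or more. The exception, Trbv21, had 8 and 11 counts in KO and 18 and 23 in WT. The last segment that entered the test was Trbv6 with 52 counts over all libraries, and the first left out was Trbv22 with 28. Counts of Trbv4, Trbv5, Trbv8 and Trbv10 are uncertain, since their exons overlap other annotated transcripts.

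**Figure D5:**
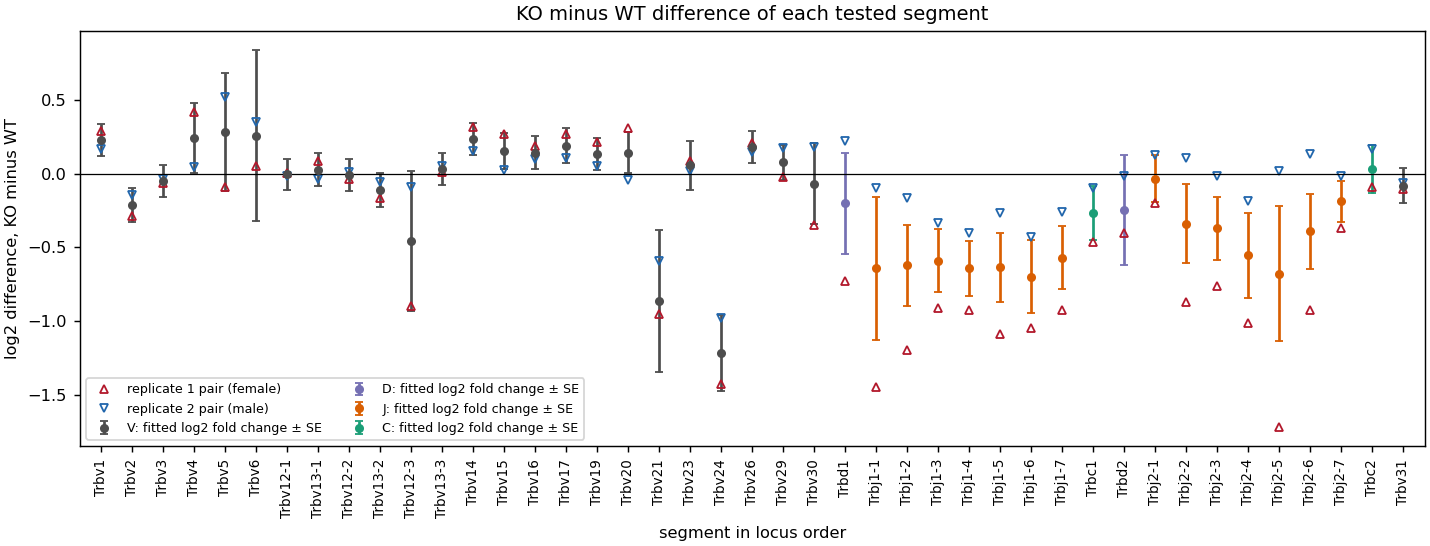
Log2 difference, KO minus WT, of each tested segment in locus order; filled points are edgeR estimates with their SE, and open triangles the differences between the female and between the male libraries. Most V segments scatter around 0, Trbv24 lies at -1.22, and the female triangle lies below the male one at 14 of the 14 J segments.

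The alpha locus of the same libraries was set beside the beta locus, with no test of the difference. Of its 60 J segments 49 were tested, and 7 of them had both KO libraries below both WT libraries, against 10 of the 14 beta J segments. That is 14.3% of the tested alpha J segments and 71.4% of the beta J segments, where 28.4% of all genes had this order. The median log2 fold change was -0.22 over alpha J segments and -0.58 over beta J segments. Between the females the medians were -0.22 in alpha and -0.92 in beta, and between the males -0.15 in alpha and -0.13 in beta. Alpha V segments had a median of -0.18 over 75 tested, and beta V segments one of 0.05. Single alpha J segments averaged at most 4.46 CPM, so their values are less precise.

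Between the first and the last beta segment lie 28 other annotated genes, several of them of the trypsin family. Of these 19 had no count and 3 were tested. Prss2, a trypsinogen gene that lies just before Trbd1 (41521787 to 41525079), had 120 and 157 counts in KO, against 46 and 96 in WT, or 5.29 and 7.26 CPM in KO and 1.94 and 3.38 CPM in WT. Both KO libraries were higher, by 1.23 on the log2 scale (edgeR adjusted p = 0.267). With sex as a term it passed (1.26 ± 0.28, SE; edgeR adjusted p = 0.0372), where 1.01% of all genes were called higher. Past Trbv31, which lies on the other strand at the end of the locus, Ephb6 had 295 and 329 CPM in KO, against 358 and 359 CPM in WT; it was named after its values were seen.

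Genes that build or rearrange the receptor gave few calls, and edgeR's test without the sex term gave 0. The receptor complex and pre-TCR list held 13 symbols, and 10 genes were measured; the other 3 symbols had no match in the annotation. Their median log2 fold change was 0.20. With sex as a term 1 of 10 rose, where 1.01% of all genes were called higher. It was Tcrg-C2, a gamma-chain constant gene, which had 44 and 36 counts in KO, against 9 and 11 in WT (log2 fold change 2.21; edgeR adjusted p = 0.0365). The other gamma-chain constant genes did not pass, with 62 and 32 counts in KO and 34 and 20 in WT for Tcrg-C1, and 13 and 10 in KO and 4 and 3 in WT for Tcrg-C4. Of 14 V(D)J recombination genes, with a median of 0.13, 1 fell with sex as a term, where 2.2% of all genes were called lower. It was Paxx, which encodes an accessory factor of DNA end joining, with 404 and 789 counts in KO, against 1119 and 1459 in WT (log2 fold change -0.94; edgeR adjusted p = 0.0336). Without the sex term it was -0.86 (edgeR adjusted p = 0.276), and it went to -0.43 without KO replicate 1 and to -1.47 without KO replicate 2. Of 12 genes for factors that bind the beta enhancer or fold the locus 0 passed either fit, with a median of 0.06. The most abundant, Tcf7 and Satb1, had log2 fold changes of -0.09 and 0.07, and that of Satb1 turned negative with library totals.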

How the data were processed

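The deposited table holds a raw count of paired fragments for each gene. Per the file headers featureCounts 1.6.3 made it over exons of GRCm38 (Ensembl 98), unstranded, with its options for multi-mapping and for overlap with several genes not set. Trim Galore 0.5.0, HISAT2 and featureCounts 1.6.4 are named in the submitters' processing notes. Per the labels' protocols, poly-T beads selected the messenger RNA. The deposited table also gives gene lengths in bases, used for levels per kilobase.

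Symbols, biotypes and sequences came from GENCODE M21 (GRCm38), and 55240 of 56239 IDs matched. All 53 segments had a sequence. In R 4.3.3, genes kept by filterByExpr were given TMM factors of 0.919 to 1.04, and the quasi-likelihood test of edgeR 4.0.16 compared KO with WT, adjusted by Benjamini-Hochberg over 15070 genes and a threshold of 0.05. A second edgeR fit had the replicate number, which separates the inferred sexes, as a term. It is the fit named as having sex as a term, and it cannot separate sex from other differences between the replicate numbers. Pair differences use log2 CPM with a prior count of 2. DESeq2 1.42.0 and limma 3.58.1 were alternatives. The edgeR steps were tested on simulated counts, where the share of false calls exceeded the threshold in both fits and was higher with the replicate term, so calls of single genes in that fit are less certain than their adjusted p. The labels do not give the number of mice behind a library, so p-values measure the spread between libraries alone. The libraries of each genotype differed in Xist and Ddx3y, so their spread holds differences between mice and sexes as well as technical ones.

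Segments and lists were chosen with earlier results of these data known. Named were all C, D and J segments with at least 1 CPM, Trbv13-1, Trbv13-2, Trbv13-3, Trbv29, Trbv1, the 6 other most abundant V segments, any segment that passed either edgeR fit, and up to 4 passing genes of each list or else its 2 most abundant. Other segments are named where a count or a group turns on them. A control with a Cre transgene alone was not analysed here, and some marker genes are not reported here.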

Additional observations from a re-analysis of the deposited data

Results flagged for a closer look

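Several segments differed in direction between the female and the male libraries, with 1 KO and 1 WT library of each sex, so these differences were not tested. In log2 terms Trbj2-5 stood at -1.72 for females and 0.02 for males, Trbj2-6 at -0.92 and 0.13, Trbj2-2 at -0.87 and 0.11, and Trbj2-1 at -0.20 and 0.13. Trbd1 stood at -0.73 for females and 0.22 for males. The sum of the D segments was -0.60 for females and 0.15 for males, and that of the Trbj2 segments -0.62 and 0.02. The sum of the C segments was -0.23 and 0.05, with Trbc2 at -0.091 and 0.16. Among the named V segments, Trbv13-1 stood at 0.087 and -0.04, Trbv29 at -0.025 and 0.17, Trbv12-1 at 0.0035 and -0.015, and Trbv12-2 at -0.034 and 0.01.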

How the results depend on the processing

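The number of calls depended on the fit. edgeR called 1 of all genes and 0 segments, against 483 and 1 with the replicate block, 1465 and 6 without the filter on low counts, and 462 and 1 in DESeq2. With 1 library left out there were 1 to 5148 calls over all genes and 0 to 18 over the segments, the highest without KO replicate 2. The labels do not say that a replicate number marks a pair, though the numbers separate the sexes, and the deviations of same-numbered libraries correlated at 0.47 across 15070 genes. Differences of class sums and shares cannot move with the block, by construction. With library totals the V sum reversed to -0.050, Trbc2 to -0.047, Trbv13-1 to -0.058, Trbv13-3 to -0.051, Trbv29 to -0.00042 and Satb1 to -0.017. With library sizes free of mitochondrial, ribosomal protein and receptor genes, Trbc2 reversed to -0.010, Trbv13-1 to -0.021 and Trbv13-3 to -0.014. Relative to C counts the log2 ratios were 0.036 for Trbv13 (a reversal), 0.16 for Trbv29, 0.31 for Trbv1 and -0.58 for Trbj1. Leaving out single libraries also turned small values, with ranges of -0.069 to 0.14 for Trbc2, -0.69 to 0.17 for Trbd1, -0.57 to 0.16 for Trbd2, -0.15 to 0.078 for Trbj2-1, -0.028 to 0.079 for Trbv13-1, -0.0068 to 0.065 for Trbv13-3, -0.018 to 0.17 for Trbv29, -0.017 to 0.0062 for Trbv12-1 and -0.060 to 0.037 for Trbv12-2. The cause of these changes was not tested. Depth limits the D segments and the V pseudogenes, whose values rest on low counts.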
